A study of Mus musculus with 24 samples.

Results

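The chromatin of cultured mouse epidermal stem cells (EpdSCs) that made SOX9 without its transactivation domain (ΔTA-SOX9) was compared with that of EpdSCs kept without doxycycline (noDOX). Peaks of both lists were merged into 1 region wherever they overlapped by at least 1 bp, which gave 67030 regions, of 134385 over all 12 peak lists of the series. A region was called opened when it had a ΔTA-SOX9 peak alone, closed when it had a noDOX peak alone, and kept when it had both. Of the 67030 regions, 14384 were opened (21.5%), 10209 were closed and 42437 were kept (63.3%). The closed regions made up 19.4% of the 52646 regions with a noDOX peak. The assay was ATAC-seq, which tags accessible DNA with the Tn5 transposase.

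The cells of both groups were keratinocytes from the back skin of male CD1 mice, and both carried rtTA, the DOX-responsive activator, under the Krt14 promoter of basal keratinocytes. The noDOX group is labelled with a MYC-tagged full-length Sox9 transgene that was left switched off, with day 0 given for 1 of its 2 samples. The ΔTA-SOX9 group is labelled with a MYC-tagged Sox9 without the transactivation domain and received DOX at 1 µg per ml, with day 3 given for 1 of its 2 samples. Per the study's methods, full-length SOX9 and both variants were brought in by lentivirus and transduced cells were selected with puromycin before DOX. The study describes accessibility before and after DOX in such cells, which would make the noDOX cells transduced ones too, with the full-length construct. Construct, DOX and the labelled day cannot be told apart in this comparison. Each group held 2 samples, whose reads the authors pooled before peaks were called, so that each group gave 1 list. No spread between samples can be given for any value below, and none was tested.

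SOX9 is a transcription factor of hair follicle stem cells (HFSCs) and is silent in the EpdSCs of adult interfollicular epidermis. Its HMG domain bends DNA and recognizes short A/T-rich sites, and its C-terminal transactivation domain recruits coactivators to the bound site. Removing the latter leaves a protein that can in principle still enter the nucleus and bind DNA. EpdSCs are kept in their fate by factors such as p63, GRHL, KLF and AP1 proteins, whose recognition sequences are common in epidermal enhancers.

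The sequences below are the central 200 bp (GRCm38, plus strand) of the 3 highest-scoring opened regions and the 3 highest-scoring closed regions, followed by 3 regions with an AP1 match at Trp63, Runx1 and Krt5. They are shown so that the presence or absence of a binding site in the regions that moved most can be read directly. Capitals mark consensus matches on either strand. The AP1 consensus was TGACTCA. For SOX it was ACAATGG, or that word with A in place of its first G. GATA matches had AGATAA, and RUNX matches had TGTGGT.
opened region in Smarca2 (chr19:26700309-26700508): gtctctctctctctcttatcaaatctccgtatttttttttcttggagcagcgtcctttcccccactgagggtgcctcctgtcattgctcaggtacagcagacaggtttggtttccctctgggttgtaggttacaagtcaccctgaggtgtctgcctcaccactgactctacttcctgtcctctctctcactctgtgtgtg
opened region in Gm30292 (chr3:52791155-52791354): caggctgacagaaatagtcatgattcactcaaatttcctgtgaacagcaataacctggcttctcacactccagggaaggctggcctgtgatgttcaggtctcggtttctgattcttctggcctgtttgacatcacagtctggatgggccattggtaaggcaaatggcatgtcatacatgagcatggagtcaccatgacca
opened region in Tmem181c-ps (chr17:6614865-6615064): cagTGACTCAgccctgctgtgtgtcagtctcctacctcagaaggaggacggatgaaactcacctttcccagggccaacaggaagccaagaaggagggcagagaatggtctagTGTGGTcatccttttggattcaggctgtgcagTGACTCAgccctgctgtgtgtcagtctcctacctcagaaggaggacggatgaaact
closed region at the Gm14410 promoter (chr2:177206229-177206428): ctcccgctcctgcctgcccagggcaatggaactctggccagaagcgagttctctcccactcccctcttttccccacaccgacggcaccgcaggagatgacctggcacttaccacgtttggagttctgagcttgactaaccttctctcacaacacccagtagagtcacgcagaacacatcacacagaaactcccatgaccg
closed region between Gm13874 and Apip (chr2:103144494-103144693): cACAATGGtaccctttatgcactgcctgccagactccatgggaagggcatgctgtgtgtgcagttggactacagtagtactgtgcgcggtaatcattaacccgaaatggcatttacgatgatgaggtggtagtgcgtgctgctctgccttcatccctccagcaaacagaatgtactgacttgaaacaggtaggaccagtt
closed region at the Gm21769 promoter (chr8:20122453-20122652): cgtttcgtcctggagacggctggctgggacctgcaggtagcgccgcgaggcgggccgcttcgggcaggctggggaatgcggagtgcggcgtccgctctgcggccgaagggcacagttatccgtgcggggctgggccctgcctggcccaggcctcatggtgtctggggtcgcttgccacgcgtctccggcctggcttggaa
closed region in Trp63 (chr16:25786538-25786737): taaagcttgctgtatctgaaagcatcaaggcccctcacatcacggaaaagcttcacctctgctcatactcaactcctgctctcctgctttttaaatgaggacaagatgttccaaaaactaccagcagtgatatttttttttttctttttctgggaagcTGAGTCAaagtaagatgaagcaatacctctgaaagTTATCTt
opened region in Runx1 (chr16:92740119-92740318): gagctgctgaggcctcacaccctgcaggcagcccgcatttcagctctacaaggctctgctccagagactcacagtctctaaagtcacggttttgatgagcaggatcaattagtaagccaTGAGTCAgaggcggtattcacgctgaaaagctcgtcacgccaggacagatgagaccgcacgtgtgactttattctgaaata
closed region upstream of Krt5 (chr15:101715923-101716122): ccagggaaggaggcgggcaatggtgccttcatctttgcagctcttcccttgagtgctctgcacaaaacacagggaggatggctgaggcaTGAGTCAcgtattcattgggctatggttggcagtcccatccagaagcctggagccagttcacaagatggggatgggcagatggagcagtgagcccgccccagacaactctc
Of the 3 opened sequences, only that in Tmem181c-ps holds any of these matches, with 2 for AP1 and 1 for RUNX. Of the 3 closed ones, only that between Gm13874 and Apip does, a SOX match near its left edge. The windows at Runx1 and Krt5 each hold a single AP1 match and no other, and the Trp63 window adds a GATA match.

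The noDOX list held 53093 peaks of median width 514 bp. The ΔTA-SOX9 list held 56959 peaks of median width 570 bp. The peak score of the authors, described here as deposited, had a lowest value of 3 in both lists. It summed to 966531 for noDOX and 925672 for ΔTA-SOX9, and the study's methods say that peak calling was normalized for read number and depth by a cited procedure, which they do not spell out. Scores were therefore read mainly as ranks. Read depth is unknown. The absence of a peak means that no peak passed this score and not that the chromatin was closed to Tn5.

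At Sox9 itself (chromosome 11, 112782224 to 112787760, plus strand, 3 exons), the ΔTA-SOX9 list had 1 peak, with a score of 101, from 112782040 to 112784045. It ended within exon 2 at codon 223 of 507, and no ΔTA-SOX9 peak lay over exon 3, which encodes codons 229 to 507. The noDOX list had a score of 21.8 over exon 1 and of 3.71 over exon 3. Reads from the delivered and the endogenous copy cannot be told apart here. The keratinocyte label was examined at 6 marker promoters (Krt5, Krt14, Trp63, Itga6, Cdh1 and Dsp), where a promoter counted as open with a peak within 1 kb of a transcription start site (TSS). All 6 were open in both lists, with a summed score of 187 in noDOX and 145 in ΔTA-SOX9. The fibroblast promoters were open for 2 of 6 (summed score 26.0 and 19.4), with none at Col1a2, Col3a1, Lum or Dcn, and the melanocyte promoters for 2 of 6 (74.5 and 71.1), with none at Tyr, Dct, Mlana or Kit. Of 4 endothelial promoters 2 were open in each list (47.2 and 23.7), with Pecam1 in both, Kdr in noDOX alone and Cdh5 in ΔTA-SOX9 alone, while none of 4 immune promoters (Ptprc, Cd3e, Cd207 and Spi1) was open in either. The part of these differences in the results below was not tested.

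Opened and closed regions were mostly weak peaks. The median score was 4.81 for opened regions in the ΔTA-SOX9 list and 4.69 for closed regions in the noDOX list, against 13.2 and 14.3 for kept regions in the same lists. Of the lowest-scoring quintile of ΔTA-SOX9 regions, 57.1% (95% Wilson interval 56.2 to 58.0%) had no noDOX peak, and of the highest-scoring quintile 0.986% (0.820 to 1.18%). The corresponding shares of noDOX regions without a ΔTA-SOX9 peak were 51.4% (50.4 to 52.3%) and 0.294% (0.208 to 0.418%). In each quintile the opened share was the higher, and the ΔTA-SOX9 list was also the longer (56959 against 53093 peaks). All intervals here cover counting error only and treat regions as units, and regions are not replicates. A score of at least 10 was reached by 1748 opened (12.2%) and 1055 closed regions (10.3%), and one of at least 20 by 226 and 107. Opened regions had a median width of 374 bp, closed regions 321 bp and kept regions 702 bp. Both lists cut to their 53093 highest-scoring peaks gave 11940 opened and 11610 closed regions, counts that equal lengths force to be nearly alike.

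**Figure D1:**
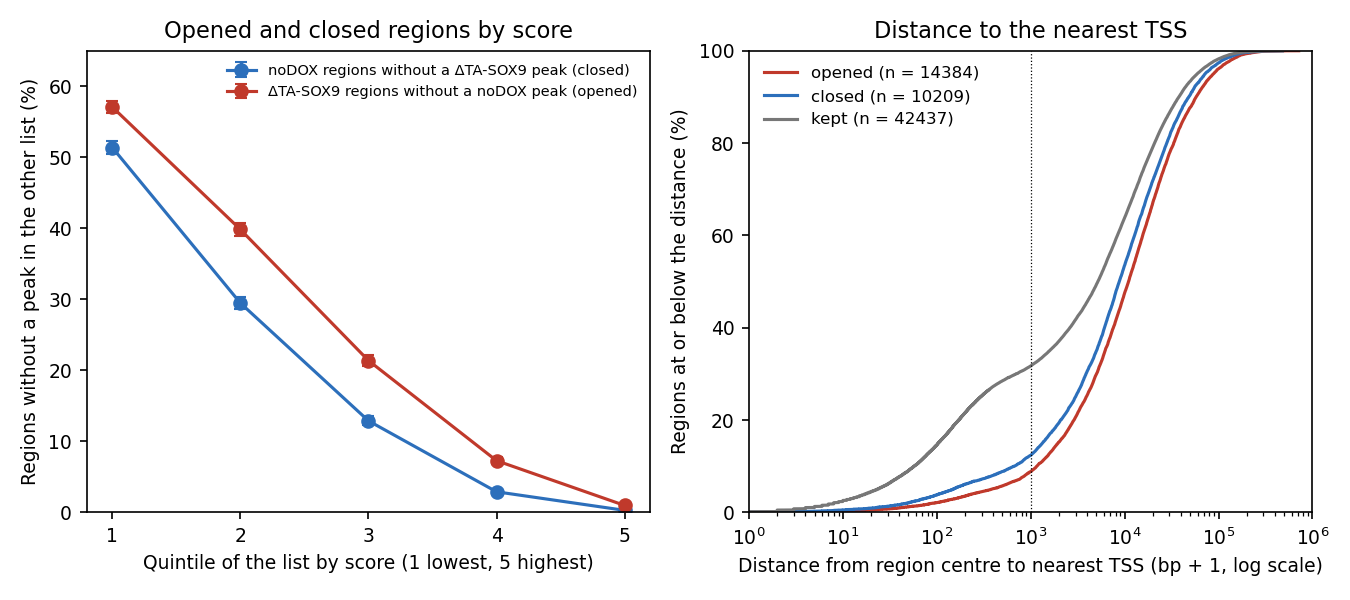
Left, share of regions without a peak in the other list (%, with 95% Wilson intervals) by quintile of the list's score, for closed (noDOX list) and opened (ΔTA-SOX9 list) regions. Right, cumulative share of opened, closed and kept regions against the distance from the region centre to the nearest TSS (bp plus 1, log scale), with a dotted line at 1 kb. The shares fall from over 50% in the lowest quintile to under 1% in the highest, and kept regions hold many more TSS-proximal members than either other class.

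The balance of opened and closed regions differed between chromosomes. Chromosomes 5 and 16 were the only ones on which closed regions outnumbered opened ones. Chromosome 5 had 568 opened and 872 closed regions, and chromosome 16 had 359 and 439. On chromosome 6, by contrast, 1207 regions were opened (28.1%, 26.7 to 29.4%) and 447 closed, and chromosomes 7 and 18 leaned the same way with 939 and 783 opened against 429 and 333 closed. The scores of kept regions moved alike, with a median log2 ratio of ΔTA-SOX9 to noDOX of -0.47 on chromosome 5, -0.34 on chromosome 16, 0.05 on chromosome 6 and 0.06 on chromosome 7, against -0.13 over all kept regions. These shifts ran along whole chromosomes and were not limited to the ones named above. All 16 bins of 10 Mb on chromosome 5 and all 10 on chromosome 16 lay below the overall median, as did all 13 on each of chromosomes 8 and X, and all 15 on each of chromosomes 6 and 7 lay above it (bins with at least 20 kept regions). Chromosome 18 had 2 of 9 bins below. On chromosome 5 the median was -0.47 within 1 kb of a TSS and -0.48 farther away, on chromosome 16 it was -0.34 in both, on chromosome 6 it was -0.01 and 0.08, and on chromosome 7 it was 0.08 and 0.03. Chromosome 5 took 6.35% of the peaks in the noDOX list, 5.34% in the ΔTA-SOX9 list, 5.70% in the WT-SOX9 list, 5.52% in the ΔHMG-SOX9 list. Of the culture lists labelled with other constructs, AFOS had 5.32%, SOX9+AFOS 7.31% and SOX9+ARID1a 7.13%. The cause of this pattern was not tested, and its part in the results at single genes of these chromosomes was not tested either. Leaving out chromosomes 5, 6, 7, 16 and 18 left 10528 opened and 7689 closed regions.

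**Figure D2:**
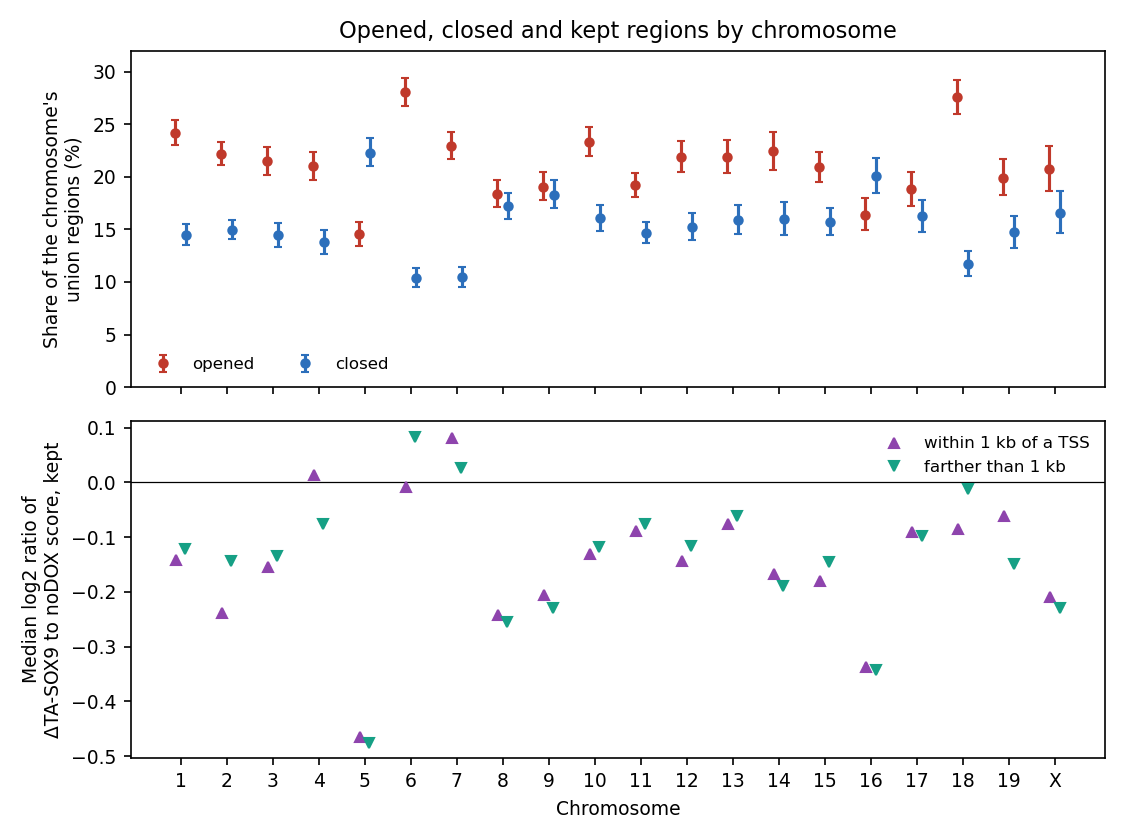
Top, share of each chromosome's union regions that were opened or closed (%, with 95% Wilson intervals). Bottom, median log2 ratio of ΔTA-SOX9 to noDOX score over kept regions within 1 kb of a TSS and farther away, by chromosome. Chromosomes 5 and 16 show more closed than opened regions and the lowest ratios in both groups of kept regions, and chromosomes 6 and 7 show the highest ratios far from a TSS.

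Both changing classes lay mainly away from promoters. Among opened regions, 8.85% (8.40 to 9.33%) were centred within 1 kb of an annotated TSS, against 12.4% (11.8 to 13.0%) of closed and 31.7% (31.3 to 32.2%) of kept regions. The median distance to a TSS was 10997 bp for opened, 8764 bp for closed and 5185 bp for kept regions. Introns held 46.7% of the opened, 45.9% of the closed and 35.6% of the kept set, intergenic sequence held 40.4%, 37.6% and 29.5%, and exons 4.04%, 4.15% and 3.15%. The difference was also present within tertiles of score, which match strength only coarsely. Among the lowest-scoring tertile of ΔTA-SOX9 regions, 9.43% (8.87 to 10.03%) of opened and 16.7% (15.98 to 17.5%) of kept regions were near a TSS, and among the highest-scoring tertile 5.56% (3.90 to 7.86%) and 45.3% (44.6 to 46.0%). The closed regions stood at 12.9% in the lowest and 11.7% in the highest tertile of noDOX scores, where kept regions had 14.8% and 47.2%. In the highest ΔTA-SOX9 tertile, from 15.7 to 1187, 226 of 522 opened and 14355 of 18419 kept regions scored at least 20. In the highest noDOX tertile, from 18.1 to 2310, 107 of 154 closed and 15859 of 17395 kept regions did. Median GC content was 47.5% in opened, 48.3% in closed and 50.3% in kept regions.

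The highest-scoring opened regions lay in introns (5), in exons (2) or between genes (3), and none was within 1 kb of a TSS. The highest, with a ΔTA-SOX9 score of 61.8, lay on chromosome 19 from 26700026 to 26700792 in an intron of Smarca2, which encodes the BRM ATPase of SWI/SNF chromatin remodellers. There the WT-SOX9 list (full-length protein) had no peak and the ΔHMG-SOX9 list (protein without the HMG domain) a score of 24.9. These lists share the noDOX list as their control and are given only side by side. The next was a region with a score of 49.7 on chromosome 3 (52791003 to 52791507) in an exon of the gene model Gm30292, with no peak in either other list. After it came chromosome 17, 6614817 to 6615113, in an intron of the pseudogene Tmem181c-ps near Dynlt1c, a dynein light chain gene, with a score of 48.8. An intronic region of Zfp143, a zinc-finger activator of promoters, scored 48.1 (chromosome 7, 110078009 to 110078647), and one of Fmn2, a formin that nucleates actin, scored 47.8 (chromosome 1, 174640918 to 174641554). The other 5 scored 39.4 to 44.6. They lay closest to the starts of Gm49292 on chromosome 14, Gm44472 and Gm38839 on chromosome 6, and Pdyn, the precursor of dynorphin opioid peptides, and Gm14011, within Mertk, a receptor kinase for clearance of dying cells, on chromosome 2. In the WT-SOX9 list all 10 lacked a peak, whereas the ΔHMG-SOX9 scores at the 9 with a peak ran from 4.88 to 24.9. None of the 10 had a peak in the D0 list of EpdSCs taken directly from skin.

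The highest-scoring closed regions included 3 promoters of predicted genes. The strongest, with a noDOX score of 117, lay on chromosome 2 (177205887 to 177206771) at 92 bp from the start of Gm14410. Its central 100 bp occurs 8 times in the assembly, so that its reads may be split between copies. Gm14326, on the same chromosome (177956491 to 177957453, score 46.2), and Gm21769 on chromosome 8 (20122136 to 20122969, score 51.1) were the other 2 promoters. The second highest closed region, with a noDOX score of 75.9, lay between genes on chromosome 2 (103144075 to 103145112), 52758 bp from the start of Apip, an enzyme of methionine salvage. It is the one printed with a SOX match, and it scored 90.2 in the WT-SOX9 list and 5.19 in the ΔHMG-SOX9 list. A region in Slit3, which encodes an axon guidance ligand, scored 40.7 in noDOX and 78.4 in skin at D0 (chromosome 11, 35317651 to 35318296). Others lay 108274 bp from the start of Med13l, a Mediator subunit gene on chromosome 5 (39.6), near Arhgef18 on chromosome 8 (39.2), and in Gm33104 on chromosome 10, at 93479 bp from the interferon gamma receptor gene Ifngr1 (37.7). The last 2 were on chromosome 16, in introns of Cpox, an enzyme of haem synthesis (36.1), and of Filip1l (35.9). All 10 closed regions had a WT-SOX9 peak, with scores from 5.05 to 90.2, and 7 had a ΔHMG-SOX9 peak, with scores from 3.83 to 24.2.

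Over the 42437 kept regions the scores of both lists ranked alike, with a Spearman correlation of 0.77 across regions, which share a genome and a pool of reads and are not replicates. The median log2 ratio of ΔTA-SOX9 to noDOX was -0.13, with quartiles of -0.57 and 0.32. Relative to that median, 4701 kept regions (11.1%) scored at least 2-fold higher with ΔTA-SOX9 and 3643 (8.58%) at least 2-fold lower, and 847 and 403 differed by at least 4-fold. The largest gain in rank was in an intron of Arhgap17 on chromosome 7 (123326572 to 123327663), which rose from a noDOX score of 3.07 to 65.6, that is, from percentile 1.29 to 97.5 of its list. A region on chromosome 6 that lay 73212 bp from Foxi3, a forkhead factor of ectodermal appendages, went from 3.07 to 40.3. The other 3 gains, on chromosomes 14, 15 and 18, lay over 100 kb from any protein-coding start and reached scores of 31.7 to 38.7. The largest loss was on chromosome 5 at 3508 bp from Fam220a, where the score went from 83.3 to 3.30. The promoter of Gm14325 on chromosome 2 went from 51.5 to 3.37, and a region in Taf4b, which encodes a TFIID subunit, from 50.4 to 3.37 on chromosome 18. An intron of Lmo7 on chromosome 14 (35.3 to 3.09) and a region 56176 bp from Zbtb18 on chromosome 1 (39.4 to 3.37) completed the losses. At the 5 gains WT-SOX9 had no peak and ΔHMG-SOX9 scored 4.60 to 19.1. At the losses WT-SOX9 had no peak near Fam220a and scores of 12.8 at Gm14325, 22.9 in Lmo7, 71.2 in Taf4b and 94.6 near Zbtb18, and ΔHMG-SOX9 scored 3.83 to 15.1.

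**Figure D3:**
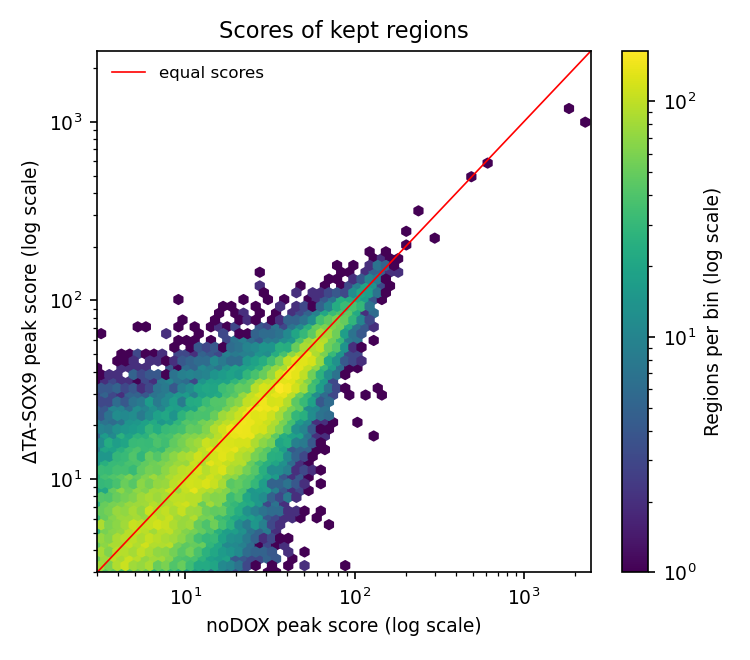
Peak score with ΔTA-SOX9 against noDOX for the 42437 kept regions, both on log scales, coloured by the number of regions per bin (log scale), with a red line of equal scores. Most strong regions lie close to and slightly below the line, and the spread widens towards the score limit of 3.

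Recognition sequences were counted in the central 200 bp. Since promoters differ in sequence from enhancers, the shares are given first for regions over 1 kb from a TSS (13111 opened, 8944 closed and 28968 kept). AP1 matches were found in 33.7% (32.9 to 34.5%) of opened, 30.3% (29.8 to 30.9%) of kept and 21.2% (20.4 to 22.1%) of closed regions. For SOX the closed class was the highest, with matches in 4.44% (4.10 to 4.81%) of opened, 4.08% (3.86 to 4.32%) of kept and 6.38% (5.90 to 6.91%) of closed regions. Closed regions also held more matches of KLF (CCACACCC, 5.67% against 3.68% of kept and 1.99% of opened) and of GRHL, the grainyhead-like epithelial factors (AACCNGTT, 4.63% against 2.78% and 1.79%). The p63 decamer followed the same order at 11.5%, 9.72% and 8.25%, as did CTCF, the insulator protein, at 3.13%, 2.16% and 1.45%. RUNX matches were somewhat more common in opened (20.02%) than in kept (18.1%) and closed regions (17.8%). GATA was found in 10.7% of opened, 9.72% of kept and 10.2% of closed regions, TEAD (GGAATG) in 16.7%, 17.3% and 18.8%, and TBX (AGGTGTGA) in 1.42%, 1.42% and 1.12%. The NRF sequence (TGACNNNGC), part of whose letters AP1 also uses, was found in 14.7% of opened, 12.8% of kept and 10.6% of closed regions. Of all 67030 regions, those near a TSS included, the central 200 bp held AP1 in 24.5%, SOX in 4.03%, KLF in 3.28%, GRHL in 2.51%, the p63 decamer in 8.61%, CTCF in 1.85%, RUNX in 16.4%, GATA in 8.61%, TEAD in 15.4%, TBX in 1.18% and NRF in 12.3%. Since promoters are included, these shares are not a like background for those above. Over all distances AP1 was found in 32.8% of opened, 22.9% of kept and 19.9% of closed regions, and SOX in 4.33%, 3.43% and 6.08%. Matches of CREB, CEBP, ETS, NFI and paired SOX sites were each found in fewer than 1.5% of the regions of any class.

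The order for AP1 and for SOX was also read within tertiles of score, which match strength only coarsely, again over 1 kb from a TSS. Among the lowest-scoring tertile of ΔTA-SOX9 regions, AP1 matches were found in 32.8% (31.9 to 33.8%) of opened and 25.3% (24.3 to 26.2%) of kept regions. In the highest tertile the shares were 32.9% (28.9 to 37.1%) and 33.7% (32.8 to 34.6%), so that opened and kept regions were not separated there. Closed regions had AP1 in 21.6% (20.6 to 22.6%) against 29.7% (28.7 to 30.7%) of kept regions in the lowest and 16.2% (10.9 to 23.3%) against 32.6% (31.7 to 33.6%) in the highest tertile of noDOX scores. Their SOX share was 6.06% (5.52 to 6.66%) against 4.09% (3.69 to 4.53%) in the lowest and 10.3% (6.23 to 16.5%) against 3.98% (3.59 to 4.39%) in the highest tertile, where there were 136 closed regions. For opened regions the SOX share, 4.63% (4.21 to 5.09%) in the lowest tertile, overlapped that of kept regions at 4.91% (4.45 to 5.41%). A match is a string of letters and does not show that a factor was bound. When whole regions were searched, the order for SOX changed to kept (12.9%), closed (10.1%) and opened (8.89%), and kept regions were also the widest. The same search over whole regions put kept above closed regions for KLF (10.7% against 8.77%), GRHL (7.37% against 6.79%) and the p63 decamer (26.2% against 18.3%), and kept above opened regions for RUNX (42.7% against 34.4%) and NRF (33.9% against 24.8%). For AP1 the opened class stayed the highest (48.0%). For CTCF the closed class did (4.52%). Within tertiles of noDOX score and over all distances, however, closed regions exceeded kept ones in the lowest tertile alone (3.85% against 2.84%). They lay below kept ones in the middle tertile (1.11% against 2.29%). In the highest, none of 154 closed regions had a match, which allows up to 2.43%, against 0.443% of kept ones.

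**Figure D4:**
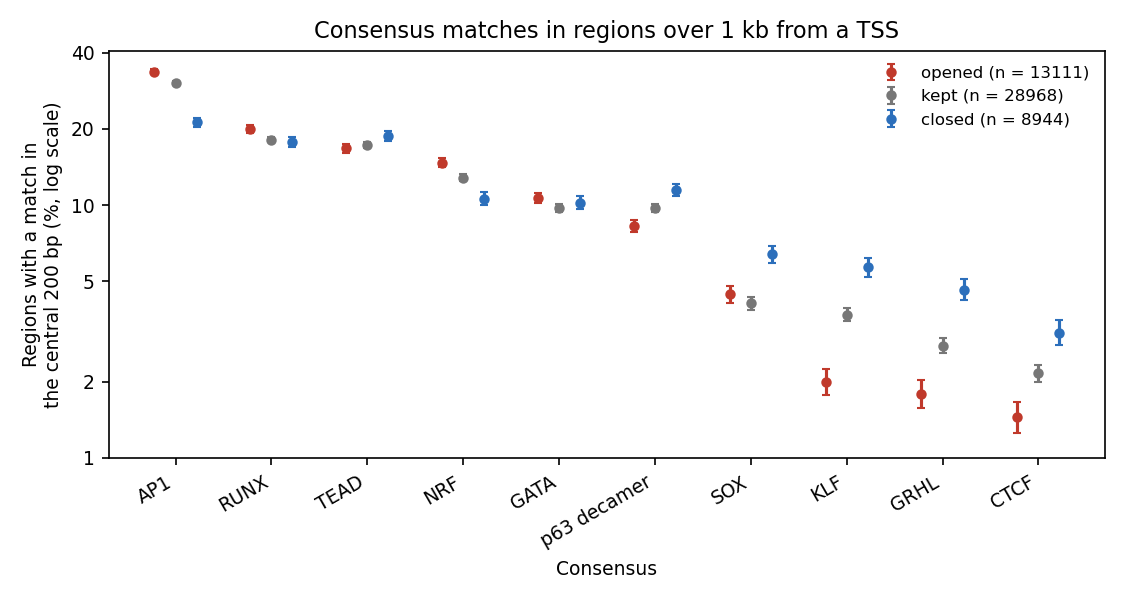
Share of regions over 1 kb from a TSS with a consensus match in the central 200 bp (%, log scale, with 95% Wilson intervals), for opened, kept and closed regions. Opened regions lie highest for AP1 and NRF, and closed regions highest for SOX, KLF, GRHL, CTCF and the p63 decamer.

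Regions were next looked up in the lists of EpdSCs taken from skin, which share no sample with the culture lists. These cells were sorted from mice of postnatal day 21 at D0, whereas the cultured cells came from newborn pups per the study's methods, so that age, culture and sorting differ together and cannot be told apart. At D0, before the transgene was switched on, 12.7% (12.2 to 13.3%) of opened regions had a peak, against 42.2% (41.2 to 43.1%) of closed and 65.5% (65.1 to 66.0%) of kept regions. The share of opened regions found at D0 was lower for stronger ones, from 13.6% (12.9 to 14.3%) in the lowest to 8.81% (6.67 to 11.6%) in the highest tertile of ΔTA-SOX9 scores. Kept regions of the same tertiles had 50.2% and 78.1%, again at strengths matched only coarsely. Closed regions did the reverse, with 38.1% (37.0 to 39.2%) in the lowest tertile of noDOX scores, close to the 36.7% (35.8 to 37.7%) of kept regions, and 68.8% (61.1 to 75.6%) in the highest, where kept regions had 85.9%. The W12 list came from skin grafted onto Nude mice, in which full-length SOX9 had been switched on with DOX for 12 weeks. Grafting, SOX9 and elapsed time all set it apart from D0. In the W12 list, a peak was found at 24.1% of the opened, 53.4% of the closed and 79.7% of the kept regions. By tertile the share of opened regions there was 24.01%, 24.5% and 23.8%. The W1, W2 and W6 lists had SOX9 on without grafting, in mice of postnatal day 28, 35 and 63. Age and SOX9 thus both set them apart from D0. In these lists the share was lower for stronger regions, going from 13.6% to 6.13%, from 14.6% to 7.47% and from 22.3% to 14.2%.

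Genes that the study followed were examined one at a time within the gene body extended by 10 kb. Over all 21728 protein-coding genes, 30.1% had at least 1 opened and 25.4% at least 1 closed region in this window. At Trp63, which encodes the master regulator of epidermal fate p63 (chromosome 16, 25683763 to 25892102), 0 of 14 regions were opened, 3 were closed and 11 kept. The closed ones were intronic and weak, with noDOX scores of 7.05, 4.04 and 3.34, and the second of these is the printed Trp63 sequence. Of the 11 kept regions 8 scored lower with ΔTA-SOX9, the strongest going from 47.7 to 22.2, and the one over an internal start of the gene from 13.8 to 9.62. The median log2 ratio of -0.52 stood against -0.34 for all kept regions of chromosome 16.

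At Runx1, a RUNX factor of hair follicle stem cells that lies on the same chromosome (92601466 to 92826149), 2 regions were opened, 6 closed and 12 kept. The opened ones, with ΔTA-SOX9 scores of 7.47 and 5.46, are both intronic and both hold an AP1 match. The closed ones had noDOX scores of 3.09 to 6.74, and 2 of them lay under WT-SOX9 peaks with scores of 37.1 and 19.2. Kept regions had a median log2 ratio of -0.73, and the promoter went from 34.4 to 23.3.

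Krt5, which encodes the basal keratin 5 (chromosome 15, 101707070 to 101712898), had 3 closed, 4 kept and no opened regions. The highest closed region, upstream of the start from 101715857 to 101716189, had a noDOX score of 12.8 and is the printed sequence with an AP1 match. The other 2 scored 10.5 and 4.15. The strongest kept region nearby, 3388 bp from the start of Krt6a, went from 53.3 to 19.2, whereas the peak over the Krt5 start went from 15.3 to 9.90. Scores at the same strongest region were 48.1 with WT-SOX9 and 51.5 with ΔHMG-SOX9.

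At Gata3, a zinc-finger factor of epidermal and follicle differentiation (chromosome 2, 9857078 to 9890034), the promoter scored 53.8 and 54.0, and 1 of 4 regions, an intronic one with a noDOX score of 8.40, was closed. At Ctnnb1, which encodes β-catenin (chromosome 9, 120929216 to 120960507), 1 of 5 regions was closed with a score of 3.99, and the promoter went from 10.3 to 17.4. Its strongest region, upstream, went from 83.7 to 51.0, and one past its end from 16.2 to 7.39. Vim, which encodes the mesenchymal intermediate filament vimentin, had 1 region, over its start, with scores of 12.5 and 9.76.

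Gene lists were then described by the regions in their windows. Over all protein-coding genes, 19.2% of the 47556 regions in these windows were opened and 14.3% were closed, and these shares stand beside each list below as the background. By gene, 30.1% had an opened and 25.4% a closed region, and a gene with more regions has more chances of either. The counts describe the lists and carry no test. With a window of 50 kb the background was 20.1% opened and 14.8% closed. It is not given for lists of equal length. Over all regions, equal lengths lowered opened counts from 14384 to 11940 and raised closed counts from 10209 to 11610.

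Lists of epidermal identity were taken first. Of 75 regions at 12 epidermal transcription factors, 6 were opened (8.0%) and 14 closed (18.7%). The opened share was 11.8% with a window of 50 kb and 4.17% with lists of equal length. Grhl3, a grainyhead-like factor of barrier formation, had 1 opened and 2 closed regions, and Zfp750, a terminal differentiation factor, had 3 closed regions with noDOX scores of 14.1, 5.63 and 4.59. Klf4, a barrier factor, had instead 2 opened regions with scores of 4.27 and 3.07. Desmosome and junction genes had 4 opened (4.0%) and 18 closed (11.7 to 26.7%, which holds the background share) of 100 regions. Closed regions lay at 10 of 13 genes, against 25.4% of all protein-coding genes. Pkp1, which encodes the desmosomal plaque protein plakophilin 1, had 5 closed regions scoring 5.4 to 14.4 and none opened, and Tjp1, the tight junction scaffold ZO-1, had 3 closed and 1 opened. Keratin genes had 3 opened and 7 closed of 31 regions, with intervals for both shares that hold the background, and 0% opened and 30.6% closed with lists of equal length. Neighbouring keratin genes share parts of their windows.

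The cornified envelope, the protein shell of the outermost keratinocytes, had 6 of 26 regions opened (23.1%, near the background) and 0 closed, though 3 of 74 were closed with a window of 50 kb. Ivl, which encodes involucrin, had 3 of the opened regions, with scores of 5.22, 4.34 and 3.09, and the transglutaminase genes Tgm1 and Tgm3 had 1 each with scores of 8.84 and 4.27. Cytokine and stress genes had 11 opened (22.9%, near the background) and 4 closed (8.33%) of 48 regions, and their kept regions had a median log2 ratio of 0.37, against -0.14 for the windows of all protein-coding genes, and of 0.14 with a window of 50 kb. S100a9, an alarmin subunit gene, had 3 opened regions, Tnf had 2 with scores of 8.64 and 6.10, and the chemokine gene Ccl20 had 2 with scores of 6.72 and 4.41. Il33, an epithelial alarmin gene, had 2 closed regions instead, with scores of 10.5 and 7.80.

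Hair follicle genes showed no single direction. At 12 HFSC transcription factors, 21 of 118 regions were opened (17.8%) and 27 closed (22.9%). Nfib, a nuclear factor I gene needed for stem cell quiescence in the follicle, had 9 opened regions with scores up to 11.5 and 4 closed ones with scores up to 14.1. Nfatc1, another quiescence factor, had 2 opened and 4 closed regions, Tcf7l1 had 1 and 4, and Tcf7l2 had 2 and 2. The 8 HFSC marker genes had 12 opened (36.4%) and 4 closed (12.1%) of 33 regions, and with a window of 50 kb the opened share was 25.8% (16.7 to 37.4%), which holds the background share. Ltbp2, which encodes a matrix protein that binds microfibrils, had 4 opened regions with scores of 3.22 to 6.19 and 1 closed, and Lgr6, which encodes an R-spondin receptor, had 3 with scores of 3.09 to 4.29 and no other region. Lgr5, the related stem cell receptor gene, had 2 opened and 1 closed, and Cd34, a surface marker of the bulge, 1 opened region with a score of 7.47. The promoters of Npnt, which encodes the matrix protein nephronectin, and of Krt15, a keratin gene of the bulge, were closed, with noDOX scores of 8.58 and 6.01. The 4 endothelial marker genes, as a list of another cell type, had 8 of 16 regions opened, of which 5 were at Cdh5, which encodes VE-cadherin. This was the highest share among the cell type lists. Fibroblast markers had 2 of 8 regions opened, immune markers 1 of 6, melanocyte markers 1 of 14 and keratinocyte markers 4 of 59. The part of other cell types in the shares of the gene lists was not tested.

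Among other transcription factor families, SOX genes had 3 opened (8.57%) and 10 closed (28.6%) of 35 regions. With a window of 50 kb these shares were 18.1% and 20.8% (13.1 to 31.6%), both near the background. Sox5 had 6 closed regions, the strongest with a score of 17.2 and both SOX and GRHL matches, and Sox6 had 3 with scores of 17.6, 8.86 and 6.46. Both encode SOX proteins without a transactivation domain. The 10 genes of AP1 subunits had 6 opened regions and 1 closed region of 46 (2.17%). With a window of 50 kb, however, the closed share was 9.32%, and 6 genes had a closed region, against 47.8% of all protein-coding genes. Fosl1 had 2 opened regions, with scores of 7.22 and 5.81 and an AP1 match in each, Atf3 had 1 with a score of 7.31 and Jund 1 with a score of 9.53. RUNX genes had 7 opened and 7 closed of 40 regions, of which Runx2, best known from bone, held 5 opened with scores up to 11.7 and 1 closed.

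Signalling genes were taken pathway by pathway. The TGF-β and BMP list had 10 opened (10.99%) and 24 closed (26.4%, 18.4 to 36.3%) of 91 regions. Closed regions lay at 14 of 17 genes, against 25.4% of all protein-coding genes. Bmpr1a, a BMP receptor gene, had 4 closed regions scoring 3.31 to 10.4 and none opened, and Smad7, an inhibitory SMAD gene, had 3 closed regions scoring 6.99 to 7.92. Smad3, a signal-carrying SMAD gene, had 2 opened and 4 closed, while Smad4, its common partner, had 4 opened and 1 closed. Notch genes had 4 opened (7.02%) and 13 closed (22.8%, 13.8 to 35.2%, which holds the background share) of 57 regions, and with a window of 50 kb 11.4% were opened and 17.5% closed. Jag1, a Notch ligand gene, had closed regions with scores from 3.02 to 21.4 and 1 opened region of 4.48, and Notch1 had 4 with scores of 4.65 to 11.6. Hedgehog genes had 7 opened and 12 closed (17.1%) of 70 regions. Gli3, a Hedgehog effector that can repress, had 7 of these closed regions and none opened, whereas Smo, the signal transducer, had 3 opened and none closed. The inhibitor gene Hhip had 1 opened region with a score of 18.1 and 1 closed with a score of 3.07. WNT genes had 5 opened (10.9%, and 18.4% with a window of 50 kb) and 4 closed of 46 regions, and Lef1, a nuclear WNT effector gene, had 2 opened with scores of 4.90 and 3.09. EGF receptor genes and ligands had 12 opened (13.95%) and 13 closed (15.1%) of 86 regions. Tgfa, an EGF receptor ligand gene, had closed regions with scores of 15.7, 15.4, 11.9 and 9.18 and 2 opened ones, and the ligand gene Areg had 2 opened regions with scores of 6.79 and 6.62.

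Integrin and basement membrane genes had 39 opened (21.3%, near the background) and 19 closed (10.4%) of 183 regions. Opened regions lay at 13 of 15 genes, against 30.1% of all protein-coding genes. Lama3, which encodes a laminin 332 chain, had 9 opened regions with scores of 3.17 to 9.22 and 1 closed. Itga2, an integrin of collagen binding, had 4 opened regions with scores of 16.8, 10.3, 10.2 and 3.81, 1 closed region and kept regions with a median log2 ratio of 1.06. Dst, which encodes a hemidesmosomal linker, had 7 opened and 5 closed. The list of epithelial to mesenchymal transition (EMT) factors and cadherins had 15 opened (26.8%, 17.0 to 39.6%, which holds the background share) and 7 closed (12.5%) of 56 regions. Cdh2, which encodes N-cadherin, had 6 opened regions with scores up to 12.5 and none closed, and its kept regions had a median log2 ratio of 1.15. Zeb1, a repressor of epithelial genes, had 3 opened regions with scores of 15.95, 6.03 and 5.39, and Zeb2, of like function, had 3 with scores of 5.18, 4.11 and 3.09. Snai1, another such repressor, had 2 opened regions with scores of 14.5 and 11.3 and 1 closed, whereas Cdh1, which encodes E-cadherin, had none opened and 3 closed with scores of 6.97, 4.90 and 4.04. In all, 5 of the 11 genes had an opened region, against 30.1% of all protein-coding genes. Cdh3, which encodes P-cadherin, had 1 opened and 2 closed regions, the EMT factor gene Twist1 had a single region, closed at its promoter with a score of 3.07, and Snai2 and Twist2 had kept regions alone, with median log2 ratios of -0.84 and -0.80. Cdh2, Zeb1, Smad4 and Lama3 lie on chromosome 18, where 27.6% of all regions were opened.

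Coactivator genes of SWI/SNF, MLL and p300 complexes had 13 opened (13.7%) and 17 closed (17.9%) of 95 regions. Arid1b, a SWI/SNF subunit gene, had 2 opened and 5 closed, and Smarcc1, a core subunit gene, had 3 opened regions with scores of 11.4, 7.47 and 7.06 and 1 closed.

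**Figure D5:**
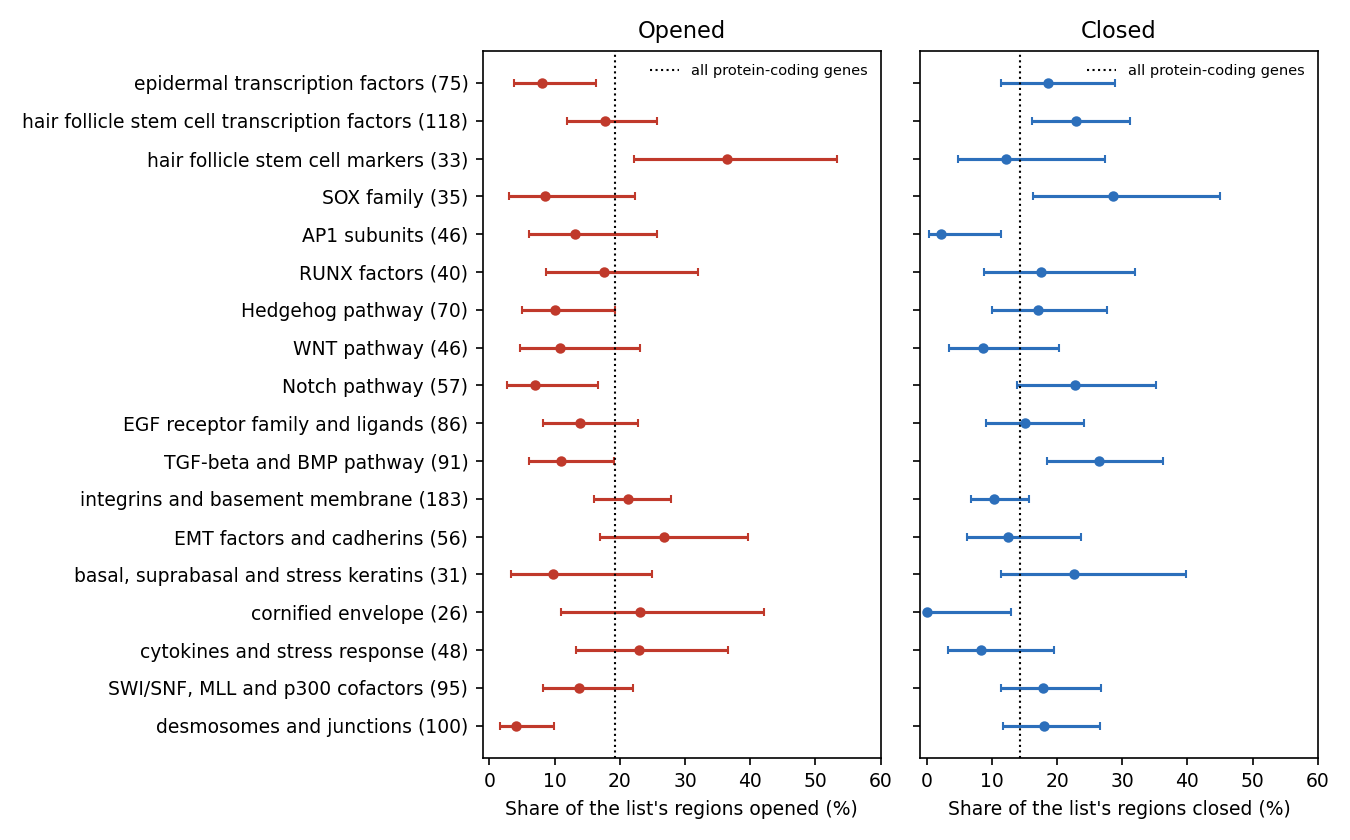
Share of the regions in the windows of each gene list that were opened (left) or closed (right), in % with 95% Wilson intervals, with the number of regions in brackets and a dotted line at the share over all protein-coding genes (19.2% and 14.3%). The cell type marker lists are not shown. Among the lists shown, with this window of 10 kb, HFSC markers lie farthest to the right for opened regions and SOX genes for closed regions. With 50 kb, EMT genes (26.7%) and keratins (23.7%) do.

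Genes with the most opened or closed regions were mainly long ones. Gm20388, a gene model that spans 4434881 bp on chromosome 8, had 53 opened and 43 closed of 286 regions, and Fgfr2, a fibroblast growth factor receptor gene whose annotated span on chromosome 7 is 2960899 bp, had 23 and 24 of 153. Dlg2, a synaptic scaffold gene on chromosome 7, had 21 opened and 4 closed, and Macrod2 on chromosome 2 had 19 and 8. Mast4, a kinase gene of 602011 bp on chromosome 13, had 18 opened and 2 closed of 36. At the other end, Foxp1, a forkhead factor gene on chromosome 6, had 9 opened and 15 closed, Lpp, a focal adhesion gene on chromosome 16, had 4 and 13, and the gene model Gm37240 on chromosome 3 had 13 and 14.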

How the data were processed

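Per the labels and the study's methods, the authors aligned ATAC-seq reads to GRCm38 (Bowtie2 2.2.9 in the PEPATAC pipeline), pooled both samples of a group, called peaks with MACS2 2.1.1 while keeping duplicates, and deposited 1 list per group with a peak score of at least 3. This deposited score was the only measure used. The methods say that calling was normalized, because read number and depth affect it, by a cited procedure whose steps are not given in the sources used here. Here peaks of the noDOX and ΔTA-SOX9 lists were merged at 1 bp of overlap and each region took its highest score. Distances used all TSSs of GENCODE vM21. Consensus matches were sought on either strand of the central 200 bp of GRCm38. A gene's window was its body with 10 kb on each side. Shares carry 95% Wilson intervals. Scripts (Python 3.11.15, pandas 2.3.3) were tested on simulated data. Named were the 10 highest opened and closed regions, the 5 largest rank gains and losses and the 5 genes with most opened and most closed regions. Also named were loci the study followed and up to 6 genes per list, mainly those with the most opened plus closed regions. Such genes need not be typical of their list. In the EMT list, Twist1, Snai2 and Twist2 were named besides. The members and lists were chosen with earlier results of these data known.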

Additional observations from a re-analysis of the deposited data

How the results depend on the processing

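No paired analysis was possible because both samples of a group were pooled before peaks were called, and for the same reason no sample could be left out. The counts of opened, closed and kept regions stayed within 1.5 times of the values given under every alternative tried: lists of equal length, a score of at least 5, an overlap of at least 50% of the shorter peak, peaks resized to 200 bp, the union of 7 culture lists and, chosen after seeing the data, leaving out chromosomes 5, 6, 7, 16 and 18. The log2 ratio of opened to closed regions was 0.49, and 0.24 with a score of at least 5. With lists of equal length it was 0.04, but equal lengths force near-equal counts, so this value tests nothing. The median log2 ratio of kept regions stayed between -0.14 and -0.11. With a TSS limit of 5 kb the shares near a TSS were 29.9% of opened, 34.97% of closed and 49.3% of kept ones, and with TSSs of protein-coding genes 6.16%, 9.23% and 28.5%. A score of at least 5 gave 13.8% of closed and 36.5% of kept regions, and equal lengths 32.3% of kept. Over whole regions the AP1 share was 48.0% (opened), 28.3% (closed) and 43.8% (kept), and the SOX share 8.89%, 10.1% and 12.9%. With a score of at least 5, SOX matches were found in 3.88% of opened and 3.17% of kept and AP1 matches in 22.2% of kept regions. For the gene lists, a window of 50 kb moved the closed share of AP1 subunit genes from 2.17% to 9.32%, of Notch genes from 22.8% to 17.5%, and of SOX genes from 28.6% to 20.8%, and the opened share of SOX genes from 8.57% to 18.1%, of WNT genes from 10.9% to 18.4%, of Notch genes from 7.02% to 11.4% and of HFSC markers from 36.4% to 25.8%, and the median log2 ratio of kept regions at cytokine and stress genes from 0.37 to 0.14. With lists of equal length the opened share of keratin genes went from 9.68% to 0%, of epidermal transcription factors from 8.0% to 4.17%, and of integrin and basement membrane genes from 21.3% to 16.3%. Intervals cover counting error only, and depth, which limits what a missing peak can show, is unknown.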
